A study of Mus musculus with 30 samples.

Results

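The 10 genes described here mark the endothelial cells that line the sinusoids of the liver: Stab1, Stab2, Clec4g, Lyve1, Pecam1, Kdr, Eng, Ptprb, Oit3 and Fcgr2b. The list was drawn up with earlier results of these data known, its members were matched by symbol, and all 10 were among the 17990 gene symbols of the deposited count table. RNA-seq was done on livers of ICR mouse offspring, an outbred stock, at 10 weeks of age, in 10 groups of 3 libraries, 5 groups per sex. Their dams drank water that held 2,4-BPS, BPSIP, BPS or E2 at 10 ng/mL in 0.001% ethanol, adjusted to give 5 µg/kg of body weight daily. Exposure ran from pregnancy to weaning, for about 40 days. Control dams received the ethanol alone, so every group, controls included, shares the ethanol. Each group had 8 dams, and offspring were taken at random from the litters of different dams. The sample titles give liver and a number within the group. Each library is taken here as the RNA of a single liver, which the titles do not state. Bisphenol S (BPS) has a pair of phenol rings joined by a sulfone. In 2,4-BPS the hydroxyl of a ring sits at another position, BPSIP carries an isopropyl ether on a hydroxyl, and E2 is estradiol. Libraries held 29711711 to 37719069 counts.

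Sinusoidal endothelial cells form a wall pierced by pores, without a basement membrane, through which plasma reaches hepatocytes. They are among the most active scavenger cells of the body, taking up hyaluronan, modified proteins and small immune complexes from the blood through receptors such as the stabilins and the Fc receptor Fcgr2b. They also send signals to hepatocytes and stellate cells and respond to VEGF, to BMP ligands and to angiopoietins. The 10 genes cover these roles: scavenger receptors (Stab1, Stab2), a hyaluronan receptor (Lyve1), an Fc receptor (Fcgr2b), a lectin (Clec4g), receptors and a phosphatase of vascular signalling (Kdr, Eng, Ptprb), a junction protein (Pecam1) and a protein with a zona pellucida domain (Oit3). Several are not restricted to this cell: Pecam1 is also made by other endothelia, platelets and leukocytes, Fcgr2b by B cells and macrophages, Stab1 by some macrophages and Lyve1 by lymphatic endothelium.

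RefSeq promoter sequences on GRCm38.p6 were found for 6 of the 10 genes (Stab1, Stab2, Clec4g, Kdr, Eng and Fcgr2b). The 250 bases before each start were searched on both strands for CGGAAG, a core motif of ETS factors, and AGATAA, a motif of GATA factors; both factor families are known in endothelial cells. CGGAAG was found in 1 of the 6 windows, that of Stab1, 58 bases before the start and on the strand opposite to the gene, against 13.76% of 27025 genes. AGATAA was in 0 of the 6 windows, against 10.25% of all genes. A match is only a run of letters, and its absence says nothing of the factor. A scavenger receptor and the lectin are printed as 2 of the genes that fell in BPSIP females and rose in BPSIP males; the first is chr14:31168642-31168891 and the second chr8:3720652-3720901, both on the minus strand, written 5′ to 3′. Each is printed on the strand of its gene, so the capitals that mark the CGGAAG match read CTTCCG.
Stab1: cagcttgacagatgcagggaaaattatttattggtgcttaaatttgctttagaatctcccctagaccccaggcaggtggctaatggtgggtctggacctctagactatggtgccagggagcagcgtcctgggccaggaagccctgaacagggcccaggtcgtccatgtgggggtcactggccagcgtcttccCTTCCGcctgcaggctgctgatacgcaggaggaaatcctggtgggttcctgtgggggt
Clec4g: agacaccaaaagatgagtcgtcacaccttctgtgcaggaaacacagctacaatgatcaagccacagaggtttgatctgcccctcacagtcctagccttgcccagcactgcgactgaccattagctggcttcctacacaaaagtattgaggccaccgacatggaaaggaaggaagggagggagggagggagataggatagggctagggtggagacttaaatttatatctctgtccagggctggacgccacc

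The sex labels were examined first, since 1 group departs from its label. The 4 Y-linked genes Ddx3y, Eif2s3y, Kdm5d and Uty summed to 131 to 169 CPM (counts scaled to library size with TMM factors, a size-normalised read count) in the exposed male libraries, to at most 0.543 CPM in females, and to 84.7 to 95.3 CPM in the 3 libraries labelled male control. From these genes, 41.8% of the RNA of those libraries would be female. Male results are therefore given both against the libraries labelled male control and without them, each exposure against the mean of the other 3 exposed male groups. Among the fixed marker lists, the 7 hepatocyte markers summed to 107307 to 112167 CPM in the libraries labelled male control and 103584 to 107049 CPM in female control. The sums were 73604 to 81869 CPM in 2,4-BPS males, 71520 to 73521 in BPSIP males, 63132 to 64848 in BPS males and 59315 to 63673 in E2 males. Unlike the Y-linked sum, that of the labelled control thus did not lie between female control and exposed males. Alb makes up most of it (mean 72750 CPM), and the share of 41.8% was not tested on other genes.

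All 10 markers were detected in all 30 libraries and passed the filter on low counts in every fit. Per length, on the deposited FPKM scale, the level in control females was highest for Clec4g (84.7 ± 1.24, mean ± SD, n = 3), followed by Fcgr2b (52.8 ± 1.01), Eng (28.5 ± 0.995) and Oit3 (16.0 ± 1.12). The junction protein Pecam1 followed at 12.1 ± 0.484 FPKM and Stab2 at 11.1 ± 0.220 FPKM. Kdr had 9.81 ± 0.376, Ptprb 8.72 ± 0.248, Stab1 7.01 ± 0.617 and Lyve1, the lowest, 3.88 ± 0.318 FPKM. In this group no 2 neighbours in the order overlapped in their 3 libraries. The order was not the same everywhere: over all 30 libraries Lyve1 averaged 5.90 and Stab1 5.98 FPKM, and Lyve1 ranged from 2.00 to 9.50 FPKM.

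Across the 10 groups, on the CPM scale, 8 of the 10 genes had their lowest mean in males exposed to BPS; the exceptions were Lyve1 and Pecam1, both lowest in E2 males. Females exposed to 2,4-BPS held the highest mean of Stab1, Stab2, Clec4g, Kdr, Ptprb and Oit3. Control females held that of Eng and Fcgr2b, BPS females that of Pecam1 and BPS males that of Lyve1. The widest span was that of Lyve1, from 6.03 ± 0.561 CPM in E2 males to 22.2 ± 3.44 CPM in BPS males, a ratio of 3.67. Stab2 spanned a ratio of 2.04, Oit3 1.83, Stab1 1.80 and Kdr 1.71, and Pecam1 had the narrowest span, 1.45. Over the group means, each of 9 genes had a Pearson r of 0.67 (Pecam1) to 0.90 (Fcgr2b) with the mean log2 CPM of the other 9. Lyve1 had an r of 0.015. The 10 group means share scaling and the groups are not independent of sex, so these r are descriptions.

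**Figure D1:**
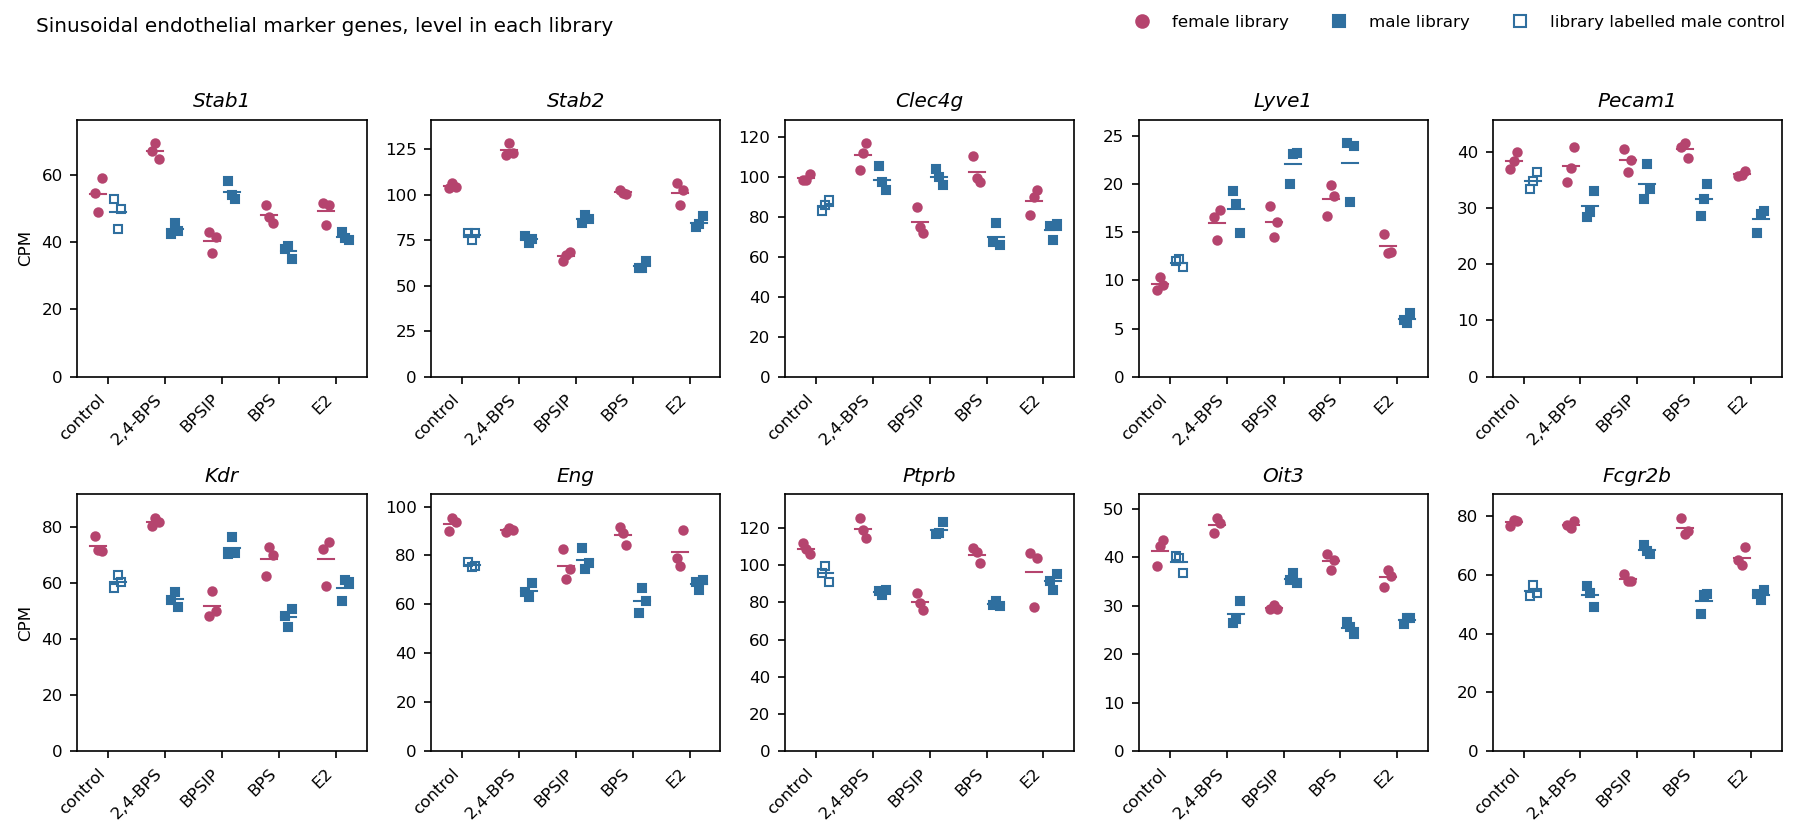
CPM of each of the 10 markers (vertical axes, each from 0) in every library by exposure (horizontal axis), with females as circles and males as squares, open squares for the libraries labelled male control, and a bar at each group's mean. The BPSIP libraries sit low in females and high in males for most genes, while Lyve1 is lowest in E2 males, at 5.55 to 6.65 CPM.

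In females 8 of the 10 markers were lower with BPSIP and none was lower with 2,4-BPS. Stab2 fell by 36.9% with BPSIP and rose by 19.2% with 2,4-BPS, and Lyve1 rose with every one of the 4 exposures. With 2,4-BPS, 3 markers rose (Stab1, Stab2 and Lyve1) and 0 fell, where 10.9% of the 13874 genes tested were higher and 8.42% lower. With BPSIP, 1 rose (Lyve1) and 8 fell, where 19.4% of all genes were higher and 19.2% lower. With BPS, 1 rose (Lyve1) and 0 fell, against 9.32% and 7.5% of all genes. With E2, 1 rose (Lyve1) and 4 fell (Fcgr2b, Oit3, Eng and Clec4g), against 10.4% and 10.6% of all genes. The median log2 fold change of the 10 markers was 0.16 with 2,4-BPS, -0.42 with BPSIP, -0.04 with BPS and -0.16 with E2, while the median over all genes lay between -0.0138 and 0.0034. Tests here and below are edgeR's quasi-likelihood test with Benjamini-Hochberg adjustment over all genes of a fit, and a gene is called at an adjusted p below 0.05. Scaling by library totals in place of TMM factors gave the same numbers of called markers with 2,4-BPS, BPSIP and E2, and with BPS 1 marker, Stab1, was then lower as well (adjusted p = 0.0271). It moved the share of higher genes among all calls from 56.4% to 30.3% with 2,4-BPS, from 55.4% to 28.6% with BPS and from 49.6% to 31.6% with E2. In RNA of whole liver, fewer cells of a type and less RNA per cell cannot be told apart. In the BPSIP females 11 of 12 Kupffer cell and macrophage genes were higher at the same time, and their part in the lower marker levels was not tested. The 4 comparisons share the same 3 control libraries.

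The stabilins are the large scavenger receptors of the sinusoid, and Stab2 is its main receptor for hyaluronan. Stab2 had 104, 106 and 104 CPM in control females and 63.6, 66.6 and 68.4 CPM in BPSIP females (-0.66 ± 0.06, adjusted p = 3.3e-12; log2 fold change ± SE of the fit). With 2,4-BPS it had 122, 128 and 123 CPM (0.25 ± 0.06, adjusted p = 0.000757). The control libraries lay between these groups, which did not overlap with them. BPS females (103, 101 and 100.3 CPM) and E2 females (106, 94.1 and 103 CPM) sat near control, the BPS libraries just below it, and neither passed the test.

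Stab1 was likewise lowest with BPSIP and highest with 2,4-BPS. Control females had 54.5, 48.9 and 59.2 CPM, BPSIP females 42.9, 36.7 and 41.6 CPM (-0.43 ± 0.07, adjusted p = 1.4e-05) and 2,4-BPS females 66.9, 69.5 and 64.7 CPM (0.31 ± 0.07, adjusted p = 0.00162). All BPSIP libraries lay below, and all 2,4-BPS libraries above, every control library. In BPS females Stab1 had 45.8 to 51.0 CPM (log2 fold change -0.16 ± 0.07) and in E2 females 45.1 to 51.7 CPM (-0.14 ± 0.07); both ranges overlapped with control and neither passed.

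Fcgr2b is the inhibitory receptor for IgG that clears small immune complexes in the sinusoid. It had 76.5, 78.6 and 78.3 CPM in control, 60.3, 57.9 and 57.8 CPM with BPSIP (-0.41 ± 0.06, adjusted p = 2.72e-07) and 65.1, 63.2 and 69.4 CPM with E2 (-0.24 ± 0.06, adjusted p = 0.00144). All libraries of both exposures were below the control libraries. With 2,4-BPS and BPS the libraries overlapped with control, at 76.0 to 78.1 and 73.8 to 79.4 CPM, and the 95% interval of the log2 fold change (from the SE of the fit) ran from -0.12 to 0.10 and from -0.13 to 0.09.

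Clec4g, a C-type lectin of the sinusoidal wall also called LSECtin, had 98.4, 98.9 and 102 CPM in control females. BPSIP females had 85.2, 74.9 and 71.8 CPM (-0.37 ± 0.07, adjusted p = 2.18e-05), below every control library. The E2 libraries, at 81.1, 90.2 and 93.7 CPM, were also all below control, with an adjusted p close to the threshold (-0.18 ± 0.07, adjusted p = 0.0497). In 2,4-BPS females (104, 112 and 117 CPM) all libraries were above control, but the test did not pass (0.16 ± 0.07, adjusted p = 0.0785).

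Lyve1 encodes a hyaluronan receptor of sinusoidal and lymphatic endothelium. Its control libraries had 8.96, 10.4 and 9.50 CPM, and all 12 libraries of exposed females were higher. 2,4-BPS females had 16.5, 14.2 and 17.3 CPM (0.74 ± 0.11, adjusted p = 2.63e-06) and BPSIP females 17.7, 14.5 and 16.1 CPM (0.74 ± 0.11, adjusted p = 8.23e-07). BPS gave the highest level, 16.7, 19.9 and 18.8 CPM (0.95 ± 0.11, adjusted p = 2.46e-08), and E2 the lowest of the exposures, 14.8, 12.8 and 13.0 CPM (0.49 ± 0.11, adjusted p = 0.00102). Lyve1 therefore went against the other called markers in BPSIP and E2 females. All 4 values rest on the same 3 control libraries.

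The signalling genes fell with BPSIP. Kdr encodes the main receptor for VEGF on endothelial cells; it had 76.6, 71.8 and 71.2 CPM in control and 48.3, 57.1 and 49.8 CPM in BPSIP females (-0.50 ± 0.08, adjusted p = 2.42e-06). Ptprb, an endothelial phosphatase that acts on the angiopoietin receptor Tie2, had 112, 109 and 106 and 84.8, 79.4 and 75.6 CPM (-0.45 ± 0.08, adjusted p = 9.15e-05). Eng encodes endoglin, a co-receptor for BMP ligands. Eng had 90.0, 95.5 and 93.6 CPM in control, 82.5, 70.2 and 74.4 CPM with BPSIP (-0.30 ± 0.06, adjusted p = 0.00027) and 79.0, 75.6 and 90.2 CPM with E2 (-0.19 ± 0.06, adjusted p = 0.0278). The BPSIP libraries of all 3 genes lay below every control library, whereas the E2 libraries of Eng overlapped with control. With 2,4-BPS none of the 3 passed: Kdr, at 80.1, 83.2 and 81.8 CPM, and Ptprb, at 125, 119 and 115 CPM, were above control in all 3 libraries (adjusted p = 0.136 and 0.252), and Eng overlapped with it (-0.04 ± 0.06). With BPS, log2 fold changes of the 3 were -0.09, -0.03 and -0.06, and all overlapped with control.

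Oit3 is enriched in liver and marks its sinusoidal endothelium. It had 38.1, 42.3 and 43.4 CPM in control, 29.2, 30.1 and 29.3 CPM with BPSIP (-0.48 ± 0.07, adjusted p = 5.4e-07) and 33.9, 37.3 and 36.2 CPM with E2 (-0.21 ± 0.07, adjusted p = 0.0265), each below control in all 3 libraries. With 2,4-BPS all libraries were above control (44.99, 48.1 and 47.0 CPM) and the test just missed the threshold (0.18 ± 0.07, adjusted p = 0.056). Pecam1, a junction protein of endothelia in general, stayed within a narrow band in females. It had 36.9, 38.4 and 40.1 CPM in control and 40.6, 36.5 and 38.6 CPM in BPSIP females, which overlapped, and the log2 fold change was 0.00 ± 0.07 (95% interval -0.14 to 0.14). No exposure passed the test for Pecam1 in females.

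The number of markers called with E2 rests on single libraries: it was 5 with all 15 female libraries and 2 to 4 when any of the 6 libraries of the comparison was left out. Without control replicate 2 or 3 it was 2, and without E2 replicate 1 or 2 it was 3. Clec4g was lost without any of these 4 libraries or control replicate 1, and also by DESeq2 (adjusted p = 0.0732). Eng was lost without any of the same 4, Oit3 without control replicate 2 or 3 or E2 replicate 1 or 3, and Lyve1 and Fcgr2b were not lost. With 2,4-BPS it was 3 in the shared fit and 7 in a fit of the 6 libraries alone.

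**Figure D2:**
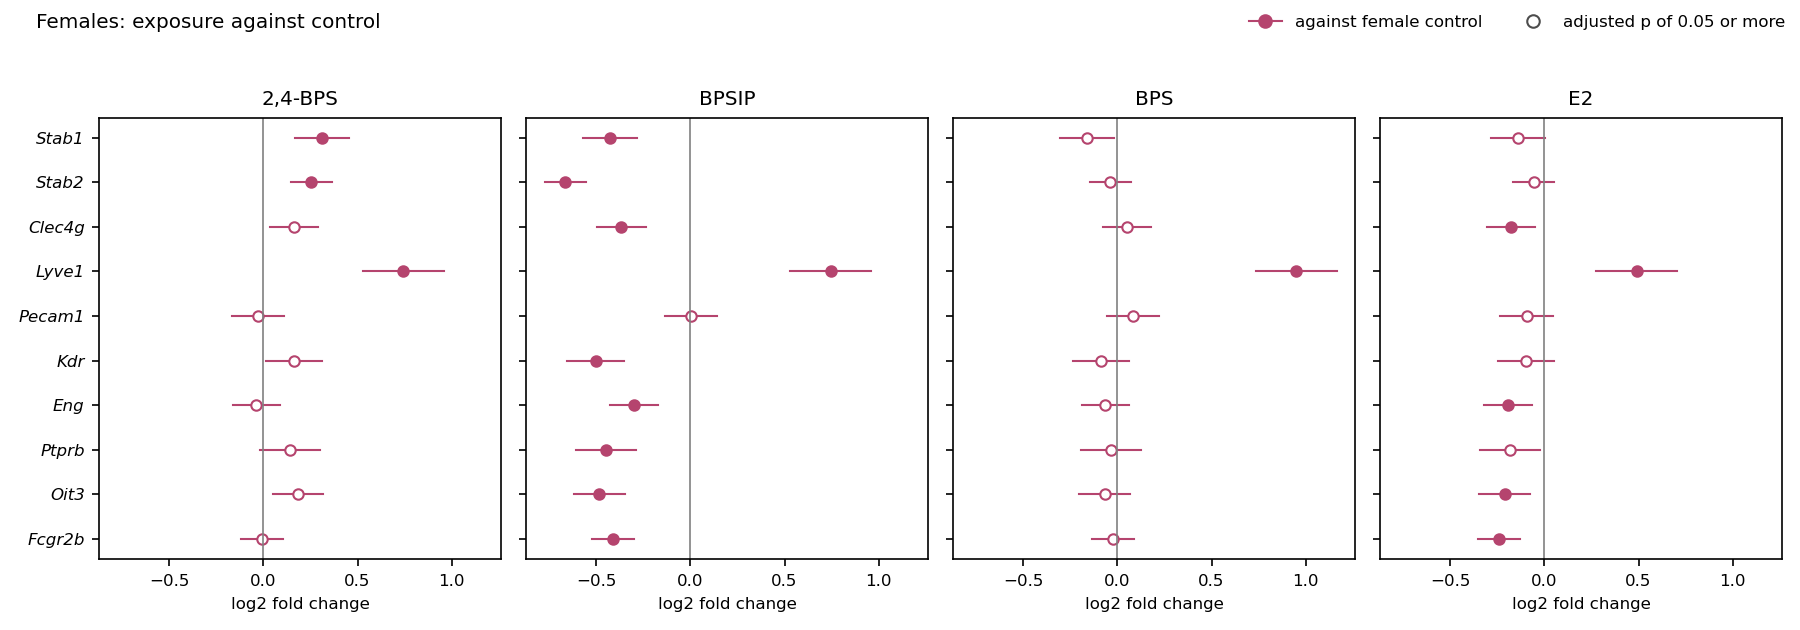
Log2 fold change of each marker (rows) against female control, 1 panel per exposure; points are estimates of the shared fit of 15 libraries, bars are 95% intervals, and open points have an adjusted p of 0.05 or more. With BPSIP 8 genes lie left of 0, from -0.66 (Stab2) to -0.30 (Eng), and Lyve1 lies right of 0 in all 4 panels.

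The exposures were then compared with each other at the same dose, in 6 pairs per sex, which need no control library. In females, 37 of the 60 tests passed, where 19.5% to 39.3% of all genes were called in a pair. The pairs of a sex reuse the same libraries, so the 60 tests are not separate results. BPSIP against BPS, which differ by the isopropyl ether, gave 8 lower markers of 10, where 39.3% of all genes were called in either direction. The largest difference was that of Stab2 (-0.63 ± 0.06, adjusted p = 1.78e-11). Clec4g (-0.42 ± 0.07), Oit3 (-0.42 ± 0.07), Kdr (-0.42 ± 0.08) and Ptprb (-0.41) followed, nearly equal. Lyve1 and Pecam1 did not pass, with intervals of -0.41 to 0.00 and -0.22 to 0.06. 2,4-BPS against BPS, which differ by the position of a hydroxyl, gave 4 higher markers against a background of 19.5%: Stab1 (0.47 ± 0.07, adjusted p = 7.1e-06), Stab2 (0.29 ± 0.06), Kdr (0.25 ± 0.08) and Oit3 (0.25 ± 0.07). The other 6 did not pass, with intervals of -0.02 to 0.24 for Clec4g, -0.42 to 0.00 for Lyve1, -0.25 to 0.03 for Pecam1, -0.10 to 0.15 for Eng, 0.02 to 0.33 for Ptprb and -0.10 to 0.13 for Fcgr2b. The call of Kdr was lost without 2,4-BPS replicate 2 (adjusted p = 0.0582) or BPS replicate 1 (adjusted p = 0.117), that of Oit3 without BPS replicate 2 (adjusted p = 0.0529), and that of Stab1 between BPSIP and BPS without BPSIP replicate 2 (adjusted p = 0.0528).

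2,4-BPS and BPSIP, which differ by both the hydroxyl's position and the ether, were the pair with the largest median difference. In that pair 8 markers were higher with 2,4-BPS, against a background of 35.5% called, from 0.26 (Eng) to 0.92 (Stab2). In all 8 the libraries did not overlap, but the share of all genes without overlap was not determined. Lyve1 did not pass, with a log2 fold change of 0.00 ± 0.11 and an interval of -0.21 to 0.21. Against E2, 7 markers were higher with 2,4-BPS (background 29.8%), 7 lower with BPSIP (38.4%) and 3 higher with BPS (25.6%: Clec4g, Lyve1 and Fcgr2b). Pairs with BPSIP depended on the scaling, since library totals moved the median of all genes by 0.14 (BPSIP against BPS), -0.15 (2,4-BPS against BPSIP) and 0.12 (BPSIP against E2) on the log2 scale. With library totals 5 markers were lower with BPSIP than with BPS, 7 higher with 2,4-BPS than with BPSIP, and 2 higher and 2 lower with BPSIP than with E2. The share of higher genes among all calls moved from 48.8% to 71.5%, from 51.4% to 26.3% and from 51.4% to 70.4% in these pairs. The Clec4g, Ptprb and Fcgr2b calls between BPSIP and E2 were each also lost without any of 3 or 4 single libraries. The Clec4g call between BPS and E2 was lost without BPS replicate 1 (adjusted p = 0.0790) or E2 replicate 1 (adjusted p = 0.0919), and the Kdr call between 2,4-BPS and E2 without E2 replicate 2 (adjusted p = 0.102). Pecam1 passed in 0 of the 6 female pairs and Lyve1 in 1, whereas Stab1, Stab2, Clec4g, Kdr, Oit3 and Fcgr2b each passed in 5.

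Among the exposed males, most markers were highest with BPSIP, and Lyve1 was about as high with BPS (22.1 ± 1.81 CPM with BPSIP and 22.2 ± 3.44 CPM with BPS). Against the mean of the other 3 exposed groups, all 10 were higher with BPSIP and 0 lower, where 15.7% of the 13289 genes tested were higher and 16% lower, and the median log2 fold change was 0.40 against -0.0012 over all genes. With BPS, 8 were lower and 1 (Lyve1) higher, against 18.5% and 17.8% of all genes (median -0.29 against 0.0021). With 2,4-BPS, 2 were higher (Clec4g and Lyve1) and 1 lower (Ptprb), against 13.3% and 12.7%. With E2, 1 was higher (Stab2) and 3 lower (Lyve1, Clec4g and Pecam1), against 17.4% and 14.2%. With library totals the 10 calls of BPSIP were unchanged, BPS had 7 lower and 1 higher and E2 6 lower and 1 higher, and the share of higher genes among all calls moved from 49% to 68% (BPS) and from 55.1% to 37.1% (E2). These 4 comparisons use the same 12 libraries, so a high value in 1 group lowers the values of the others.

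Against the libraries labelled male control, with the caution given above, 7 markers rose and 0 fell with BPSIP (background 17.4% higher and 17.4% lower), and 1 rose and 7 fell with BPS (20.6% and 22.7%). With 2,4-BPS, 2 rose and 5 fell (18.9% and 19.4%). With E2, 1 rose and 6 fell (17.2% and 16.4%). The count with E2 was 4 without replicate 1 of the libraries labelled male control, and with library totals the count with 2,4-BPS was 4. The marker that rose with E2 was Stab2 (0.13 ± 0.05, adjusted p = 0.0438). That call was lost with library totals (adjusted p = 0.0788), with RLE factors, without the filter, in the fit of 30 libraries and without any of 5 single libraries (adjusted p 0.0561 to 0.223), all but E2 replicate 1. The fall of Eng with E2 (-0.14 ± 0.06, adjusted p = 0.0489) was lost without any of the 6 libraries (adjusted p 0.0529 to 0.181), and that of Stab1 without labelled control replicate 1 (adjusted p = 0.0893). With 2,4-BPS, the falls of Pecam1 and Kdr were each lost without any of 4 single libraries, and that of Ptprb without labelled control replicate 2 (adjusted p = 0.111). With BPSIP, the call of Stab1 was lost without BPSIP replicate 1 (adjusted p = 0.179) or labelled control replicate 2 (adjusted p = 0.303), and that of Stab2 without BPSIP replicate 2 (adjusted p = 0.0543) or labelled control replicate 2 (adjusted p = 0.0745). Library totals moved the share of higher genes among all calls from 47.6% to 63.5% with BPS, and the median of all genes by 0.11. When each exposed male library was first mixed, at a share of 41.8%, with the same-numbered library of control females, 8 markers passed with BPSIP, 5 with 2,4-BPS, 4 with BPS and 4 with E2. Most of the falls did not hold in that mixed comparison: Oit3 was still lower with 2,4-BPS, Stab1 and Oit3 with BPS, and Lyve1 and Oit3 with E2, and the others no longer passed. Fcgr2b was instead higher and passed with 2,4-BPS (0.22, adjusted p = 3.29e-05), BPS (0.18, adjusted p = 0.000439) and E2 (0.22, adjusted p = 2.89e-05), and so did Stab2 with 2,4-BPS (0.17, adjusted p = 0.000133). Control females held 77.8 CPM of Fcgr2b and 105 CPM of Stab2. The group means of Fcgr2b in these males were 51.0 to 53.3 CPM and that of Stab2 with 2,4-BPS 75.6 CPM, so the mixing itself raises both. The same control female libraries enter every mixed group, so these adjusted p do not measure an effect of exposure. BPSIP kept the same direction for all 7 called genes in that mixed comparison, and Eng passed in addition (0.14 ± 0.04, adjusted p = 0.00316). Control females held 93.0 CPM of Eng and BPSIP males 78.3 CPM, so the mixing itself raises Eng too. It also raises Stab2 (86.7 CPM in BPSIP males) and Fcgr2b (68.4 CPM) in that group. The adjusted p with BPSIP therefore do not measure an effect of exposure alone. Shares over all genes were not determined for the mixed comparison. The comparisons with the labelled control and the mixed comparison share the same 3 libraries labelled male control.

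Among the scavenger receptors, Stab1 had 58.2, 53.9 and 52.9 CPM in BPSIP males, above every library of the other exposed males (0.43 ± 0.05, adjusted p = 8.43e-10). BPS males had 38.0, 38.9 and 34.9 CPM, below them all (-0.33 ± 0.06, adjusted p = 1.85e-06). The 2,4-BPS males (42.5, 45.6 and 43.4 CPM) and E2 males (43.0, 41.1 and 40.6 CPM) lay between and overlapped, and the libraries labelled male control had 52.8, 44.0 and 49.9 CPM. Stab2 had 84.5, 88.7 and 86.9 CPM with BPSIP (0.25 ± 0.04, adjusted p = 3.89e-06), 82.1, 83.8 and 88.1 CPM with E2 (0.22 ± 0.04, adjusted p = 6.13e-05) and 77.3, 73.7 and 75.8 CPM with 2,4-BPS. BPSIP and E2 males overlapped for Stab2. BPS males, at 59.6, 59.8 and 63.4 CPM, were below every other library (-0.45 ± 0.05, adjusted p = 2.22e-12), and the libraries labelled male control had 79.2, 75.2 and 79.1 CPM.

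For Fcgr2b, the BPSIP males had 70.1, 68.2 and 67.0 CPM and stood above every other male library (0.39 ± 0.05, adjusted p = 3.27e-09). BPS males had 46.7, 53.0 and 53.3, 2,4-BPS males 56.3, 53.9 and 49.2, E2 males 53.4, 51.6 and 54.9 and the libraries labelled male control 52.7, 56.6 and 53.7 CPM. These 4 groups overlapped, although BPS passed against the other 3 (-0.20 ± 0.05, adjusted p = 0.00166). That call was lost without BPS replicate 1 (adjusted p = 0.0785), with an adjusted p of 0.0878 when library totals replaced TMM. The lectin Clec4g split the males into a high and a low pair. It had 105, 97.4 and 93.7 CPM with 2,4-BPS (0.30 ± 0.05, adjusted p = 4.38e-07) and 104, 100.03 and 96.2 CPM with BPSIP (0.33 ± 0.05, adjusted p = 2.86e-08). With BPS it had 67.7, 77.3 and 65.9 CPM (-0.37 ± 0.05, adjusted p = 3.69e-09) and with E2 75.6, 68.6 and 76.3 CPM (-0.26 ± 0.05, adjusted p = 1.63e-05). Each pair overlapped within itself and not with the other, and the libraries labelled male control, at 82.8, 85.9 and 88.5 CPM, lay in between.

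Lyve1 had the largest differences of any marker in males. E2 males had 5.90, 5.55 and 6.65 CPM, below every other library of either sex (-1.75 ± 0.11, adjusted p = 2.69e-21 against the other 3, and -0.96 ± 0.12, adjusted p = 1.62e-09 against the libraries labelled male control). BPS males had 24.3, 18.2 and 24.0 CPM (0.73 ± 0.09, adjusted p = 6.89e-10), BPSIP males 20.1, 23.1 and 23.2 CPM (0.75 ± 0.09, adjusted p = 3.03e-10) and 2,4-BPS males 19.3, 17.9 and 14.95 CPM. BPS males overlapped with both BPSIP and 2,4-BPS males, which did not overlap with each other. The call of 2,4-BPS against the other 3 (0.27 ± 0.09, adjusted p = 0.0193) was lost without 2,4-BPS replicate 1 (adjusted p = 0.209) or replicate 2 (adjusted p = 0.0794). The libraries labelled male control had 12.0, 12.2 and 11.4 CPM, above all E2 males and below all males given a bisphenol.

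The signalling genes were high with BPSIP and low with BPS. Kdr had 70.1, 76.2 and 70.7 CPM in BPSIP males (0.45 ± 0.05, adjusted p = 4e-11) and 48.2, 44.3 and 50.8 CPM in BPS males (-0.37 ± 0.05, adjusted p = 4.35e-08). Ptprb had 117, 117 and 123 and 78.5, 80.7 and 77.9 CPM in the same groups (0.49 ± 0.04, adjusted p = 1.4e-15, and -0.32 ± 0.04, adjusted p = 1.02e-08). For both genes the BPSIP libraries were above, and the BPS libraries below, every other exposed male library. Eng had 83.2, 74.6 and 77.1 CPM with BPSIP (0.27 ± 0.05, adjusted p = 6.73e-06), again above the rest, and 56.7, 66.9 and 61.2 CPM with BPS (-0.21 ± 0.05, adjusted p = 0.000436), which overlapped with 2,4-BPS and E2 males. The libraries labelled male control ranged from 58.1 to 62.8 CPM for Kdr, 91.0 to 99.7 CPM for Ptprb and 75.4 to 77.2 CPM for Eng. For Eng they lay within the range of the BPSIP libraries, and Eng did not pass against them with BPSIP (0.05 ± 0.06).

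Oit3 depended on the reference. With BPSIP it had 35.2, 36.7 and 34.7 CPM, above all other exposed males (0.41 ± 0.06, adjusted p = 5.32e-07), yet all 3 libraries were below those labelled male control (40.2, 39.8 and 36.8 CPM; -0.12 ± 0.08, adjusted p = 0.227). The other exposed groups had 26.5 to 30.9 (2,4-BPS), 24.1 to 26.7 (BPS) and 26.3 to 27.5 CPM (E2), and all 3 fell against that label (-0.46, -0.63 and -0.51). Pecam1 had 31.7, 37.8 and 33.3 CPM with BPSIP and 25.6, 28.9 and 29.5 CPM with E2. Both passed against the other 3 by a small margin (0.20 ± 0.07, adjusted p = 0.0183, and -0.18 ± 0.07, adjusted p = 0.0417), and both overlapped with them. The first call was lost without BPSIP replicate 2 (adjusted p = 0.25), and the second without any of 6 single libraries (adjusted p up to 0.211, without E2 replicate 1).

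**Figure D3:**
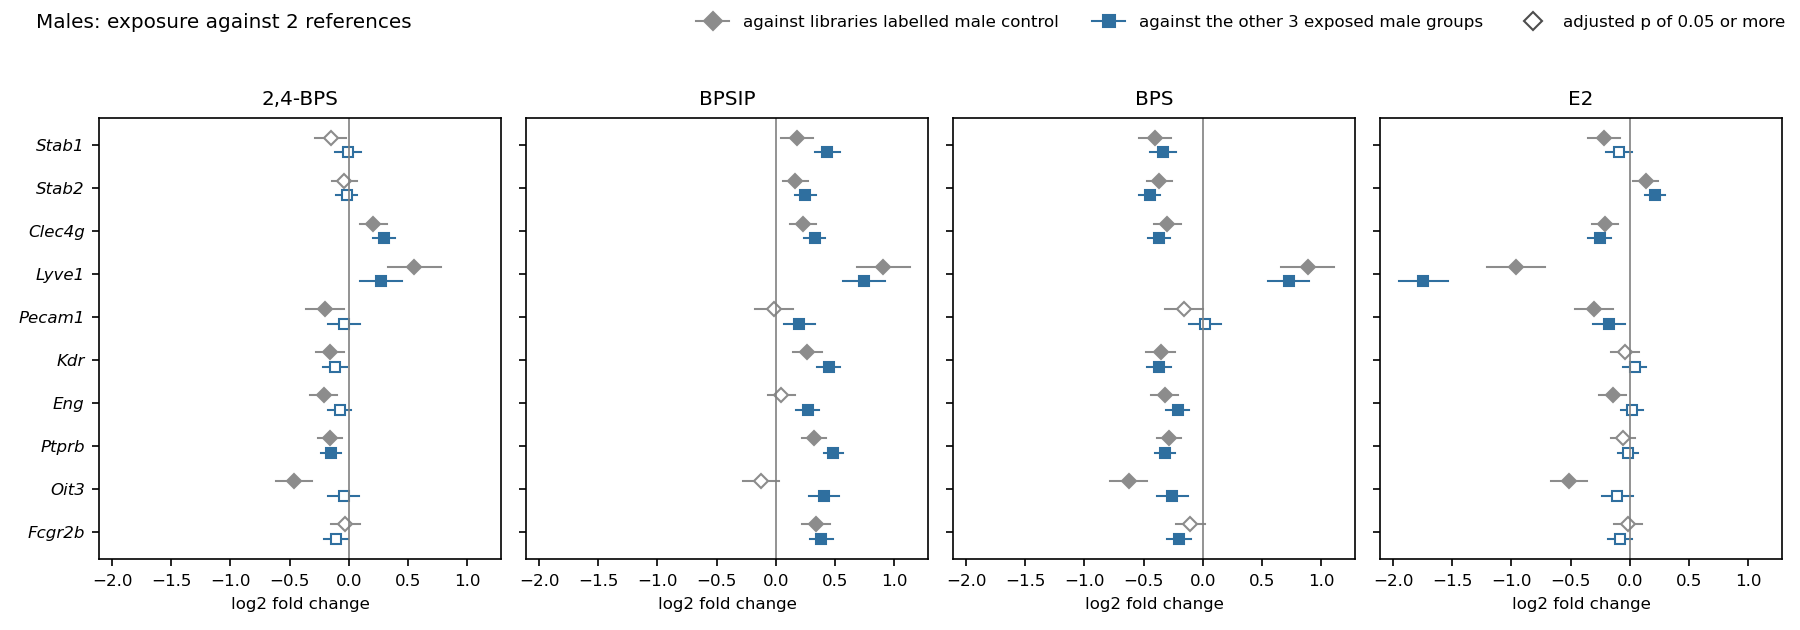
Log2 fold change of each marker (rows) in exposed males, against the libraries labelled male control (diamonds) and against the mean of the other 3 exposed male groups (squares); bars are 95% intervals and open points have an adjusted p of 0.05 or more. With BPSIP all squares lie right of 0, from 0.20 (Pecam1) to 0.75 (Lyve1), and Lyve1 with E2 lies farthest left, at -1.75.

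Between pairs of exposed male groups, 39 of the 60 tests passed, where 26.4% to 37.5% of all genes were called in a pair. These pairs, too, reuse the same libraries. BPSIP against BPS gave 8 higher markers (background 35.4%), from 0.37 (Eng) to 0.62 (Kdr, 0.62 ± 0.06, adjusted p = 3.34e-13), and Lyve1 and Pecam1 did not pass (intervals -0.19 to 0.24 and -0.02 to 0.30). 2,4-BPS against BPS gave 5 calls (27.5%): Clec4g (0.51 ± 0.06, adjusted p = 3.73e-11), Stab2 (0.33 ± 0.05), Stab1 (0.25 ± 0.07) and Kdr (0.20 ± 0.06) were higher and Lyve1 (-0.33 ± 0.11) lower. 2,4-BPS against BPSIP gave 8 lower markers (31.3%), led by Ptprb (-0.48 ± 0.05) and Kdr (-0.43 ± 0.06). Clec4g was not among them, with an interval of -0.13 to 0.09. Against E2, 9 markers were higher with BPSIP (26.4%), 2 higher and 1 lower with 2,4-BPS (28.4%), and 1 higher and 5 lower with BPS (37.5%). Lyve1 had the widest of these gaps, 1.87 ± 0.12 for BPSIP, 1.85 ± 0.12 for BPS and 1.52 ± 0.12 for 2,4-BPS. Of the calls named here, that of Kdr between 2,4-BPS and BPS was lost without 2,4-BPS replicate 2 (adjusted p = 0.08996) or BPS replicate 2 (adjusted p = 0.147), and that of Lyve1 in the same pair without 2,4-BPS replicate 3, BPS replicate 1 or BPS replicate 3 (adjusted p up to 0.165). Against E2, the calls of Pecam1 and Eng with BPSIP, of Stab2 with 2,4-BPS and of Stab1 and Eng with BPS were each lost without any of 1 to 5 single libraries. With library totals, 2 markers in place of 4 were higher with 2,4-BPS than with BPS, as Stab1 (adjusted p = 0.0504) and Kdr (adjusted p = 0.154) were lost, and Stab2 was lost between 2,4-BPS and E2 (adjusted p = 0.0629). Also with library totals, 2 markers were higher and 2 lower with BPS than with E2, where the median of all genes moved by 0.12. The share of higher genes among all calls then moved from 55.2% to 35.3% (2,4-BPS against BPS), 52.5% to 36.5% (BPSIP against BPS), 47.7% to 58.2% (2,4-BPS against E2), 46.8% to 57.1% (BPSIP against E2) and 45.2% to 66.3% (BPS against E2). Stab2 did not pass between BPSIP and E2 (interval -0.07 to 0.13).

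Between the sexes the markers were higher in females on average over the exposures, but not with BPSIP. Over the mean of the 4 exposed groups of each sex, 9 were higher in females and 0 lower, where 28.5% of the 14131 genes tested were higher and 29.9% lower. Oit3 (0.37 ± 0.04) and Stab2 (0.33 ± 0.03) differed most, then Eng (0.30 ± 0.03), Pecam1 (0.30 ± 0.04) and Fcgr2b (0.30 ± 0.03). Lyve1 did not pass (0.08 ± 0.06, adjusted p = 0.219). The exposed libraries of the sexes overlapped for every gene. With BPSIP the 10 markers summed to 534 ± 18.1 CPM in females and 672 ± 5.89 CPM in males. In each other exposure the female sum was higher, such as 771 ± 9.38 against 553 ± 7.17 CPM with 2,4-BPS. With BPSIP, Stab2 had a mean of 66.2 CPM in females and 86.7 CPM in males, while Pecam1 went the other way (38.6 and 34.3 CPM). The sexes were not tested within a single exposure. Between control females and the libraries labelled male control, 6 were higher in females and 1 (Lyve1, -0.30 ± 0.12, adjusted p = 0.0424) lower, against 14.6% and 15.6% of all genes. The call of Lyve1 was lost without control female replicate 1 or 3 or labelled male control replicate 1 or 2 (adjusted p 0.0872 to 0.148), and with the replicate number as a block (adjusted p = 0.107). The count of 7 was 4 without replicate 1 of the libraries labelled male control, where Clec4g and Ptprb were lost too, and Ptprb was also lost without any of 3 other libraries. With library totals 9 were higher in females and 0 lower, the median of all genes moved by 0.14, and the share of higher genes among all calls moved from 48.5% to 75.6%. Over the exposed groups, 12 of 12 Kupffer cell and macrophage genes were also higher in females, with mean sums of 1904 ± 79.5 (2,4-BPS), 2305 ± 172 (BPSIP), 1283 ± 59.7 (BPS) and 1219 ± 39.4 CPM (E2) in females. In males the same sums were 722 ± 11.0, 815 ± 35.8, 784 ± 10.6 and 865 ± 38.5 CPM. The 7 hepatocyte genes, of which 2 were higher and 5 lower in females, also differed in their sum, which ranged from 98298 to 130896 CPM over exposed females and from 59315 to 81869 CPM over exposed males. No gene of either list was at 0. Their part in the markers' difference was not tested.

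The effect of an exposure against control was also compared between the sexes, as the female minus the male log2 fold change. For BPSIP, 8 markers had a lower effect in females, against a background of 36.3% called in either direction. Stab2 differed by -0.82 ± 0.08 (adjusted p = 2.13e-14), and Kdr and Ptprb each by -0.76. Taken without any control library, as exposure against the other 3 exposures, the same 8 passed in the same direction and Lyve1 passed in addition (-0.71, adjusted p = 1.24e-05); Stab2 then differed by -0.95 and Kdr by -0.92. The values against control rest in part on the libraries labelled male control. Those without control libraries are tied over the exposures, so the high value of Lyve1 with E2 lowers its value with BPSIP. For 2,4-BPS, 5 effects were higher in females (background 34.8%), for BPS 4 (30.9%) and for E2 2 (16.9%). With library totals 2 were called for 2,4-BPS and 1 for BPS, and for E2 1 was higher in females (Lyve1) and 2 lower (Stab2, -0.24, and Fcgr2b, -0.28); the median of all genes moved by -0.12 (2,4-BPS) and -0.17 (BPS), and the share of higher genes among all calls moved from 51.8% to 36%, from 51.7% to 27.9% and, for E2, from 52.8% to 39.4%. The Eng call for BPS was lost without BPS replicate 1 of either sex or control female replicate 1 (adjusted p 0.0618 to 0.113), and the Oit3 call for E2 without any of 6 single libraries (adjusted p 0.0501 to 0.108). Lyve1 with E2 had the largest difference of all, 1.47 ± 0.17, adjusted p = 1.81e-10, as it rose in females and fell in males. Without control libraries it was 1.42 (adjusted p = 5.49e-12).

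Counts of called genes in the lists that follow are to be read against the shares over all genes in the same comparison. For BPSIP these were 19.4% higher and 19.2% lower in females and 15.7% higher and 16% lower in males against the other 3 groups.

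Other genes known from sinusoidal endothelium, 24 besides the 10 markers, were all tested. With BPSIP in females 1 rose and 16 fell (median log2 fold change -0.29), and with BPSIP in males against the other 3, 14 were higher and 1 lower (median 0.27). F8, coagulation factor VIII, which the liver makes in these cells, fell in BPSIP females (-0.60 ± 0.10, adjusted p = 2.69e-05) and was higher in BPSIP males (0.44 ± 0.07, adjusted p = 1.69e-06). The water channel Aqp1 had -0.36 ± 0.06 and 0.37 ± 0.04 in the same comparisons, both called. Kit, the receptor for stem cell factor, was called higher in both (0.43 ± 0.13 and 0.47 ± 0.13). The mannose receptor Mrc1 did not pass in BPSIP females (-0.04 ± 0.06) and rose with 2,4-BPS (0.41 ± 0.06, adjusted p = 1.95e-06). In females with 2,4-BPS 4 rose and 0 fell (all genes, 10.9% and 8.42%), with BPS 3 rose and 1 fell (9.32% and 7.5%), and with E2 0 rose and 9 fell (median -0.15; 10.4% and 10.6%). In BPS males, 2 were higher and 9 lower than in the other 3 groups, against 17.8% and 18.5% of all genes.

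Of 27 genes of endothelium in general and of other vessels, with BPSIP in females 5 rose and 7 fell, with a median of -0.02, near the shares over all genes (19.4% and 19.2%). The leukocyte adhesion molecules Icam1 (1.17 ± 0.09, adjusted p = 9.16e-14) and Vcam1 (0.88 ± 0.07, adjusted p = 5.72e-13) were among those that rose; both are also made by other liver cells. Vcam1 rose with 2,4-BPS too (1.17 ± 0.07), as did Plvap, which encodes the protein of endothelial diaphragms (0.40 ± 0.07). In males with BPSIP, 4 of the 27 were higher and 2 lower than in the other 3 groups, at or below the shares over all genes (15.7% and 16%). Of the 5 lymphatic endothelial genes, Reln and Prox1 fell in BPSIP females (-0.46 ± 0.06 and -0.35 ± 0.09). Reln, also a stellate cell gene, was higher in BPSIP males (0.44 ± 0.05). Prox1, also a hepatocyte gene, was lower in them (-0.21 ± 0.05).

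The pathways of the signalling markers were read from fixed lists, with the markers left out of the counts. Of 8 tested VEGF genes besides Kdr, with BPSIP in females 0 rose and 3 fell (all genes, 19.4% and 19.2%), namely the ligand Vegfb (-0.60 ± 0.14), the receptor Flt4 (-0.36 ± 0.08) and the co-receptor Nrp2 (-0.36 ± 0.11). In males against the other 3 groups, 5 were higher with BPSIP and 0 lower (all genes, 15.7% and 16%), and with BPS 0 were higher and 5 lower (17.8% and 18.5%). Flt4 had 0.52 ± 0.06, adjusted p = 7.36e-10 with BPSIP and -0.43 ± 0.07, adjusted p = 4.27e-07 with BPS in males. Nrp2 fell in females with all 3 bisphenols (-0.47, -0.36 and -0.54 for 2,4-BPS, BPSIP and BPS), which share the control libraries.

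Of 17 BMP and endoglin pathway genes besides Eng, with BPSIP in females 2 rose and 7 fell (all genes, 19.4% and 19.2%), and in males 8 were higher and 1 lower than in the other 3 groups (15.7% and 16%). Smad9, a signal transducer of BMP receptors, had the largest values, -1.48 ± 0.16, adjusted p = 1.01e-09 in females and 1.18 ± 0.07, adjusted p = 6.62e-22 in males. Hamp, which encodes hepcidin and is induced by BMP signals in hepatocytes, had -0.44 ± 0.06 and 0.64 ± 0.03. In BPS it was lower in both sexes, at -0.61 ± 0.06 against female control and -0.77 ± 0.04 against the other 3 male groups. Id3, a target of the same pathway, went the other way in BPSIP females (0.38 ± 0.07, adjusted p = 5.67e-05). Of the 4 angiopoietin and Tie2 genes besides Ptprb, the receptors Tie1 and Tek fell in BPSIP females (-0.48 ± 0.09 and -0.34 ± 0.10), and Tek was higher in BPSIP males (0.32 ± 0.09).

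Of the hyaluronan genes other than Stab2 and Lyve1, 6 were tested. In BPSIP females the hyaluronan receptor Cd44, common on leukocytes, rose (0.99 ± 0.09, adjusted p = 4.44e-11) and the hyaluronidase gene Hyal2 fell (-0.46 ± 0.07, adjusted p = 1.35e-06), and the other 4 did not pass. Of the 5 Fc receptor genes other than Fcgr2b, 4 rose in BPSIP females and 1 fell. Fcgr4 (1.43 ± 0.10), Fcer1g (1.21 ± 0.11) and Fcgr3 (0.89 ± 0.09), receptor genes of myeloid cells, rose while Fcgr2b fell. Fcgrt, the neonatal Fc receptor that salvages IgG and albumin, fell in BPSIP females (-0.61 ± 0.06, adjusted p = 3.83e-11) and was higher in BPSIP males (0.41 ± 0.04, adjusted p = 5.11e-14).

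Markers of other cells moved in the same groups, where 19.4% of all genes were higher and 19.2% lower in BPSIP females. In BPSIP females 11 of 12 Kupffer cell and macrophage genes rose and 0 fell, and their sum was 2203 to 2503 CPM against 1395 to 1452 CPM in control. Marco, a scavenger receptor of these macrophages, had 2.03 ± 0.07 and Csf1r, their growth factor receptor, 0.75 ± 0.05. In 2,4-BPS females, where 10.9% of all genes were higher, the same list had 11 of 12 higher, with a sum of 1843 to 1994 CPM. All 5 platelet genes rose with BPSIP in females, from a sum of 3.99 to 7.15 CPM to 20.2 to 23.2 CPM. Of 12 stellate cell genes 4 rose and 4 fell, with a sum of 616 to 637 CPM against 644 to 689 CPM. The 7 hepatocyte genes summed to 98298 to 110503 CPM against 103584 to 107049 CPM, with 1 higher and 2 lower. No gene of these 4 lists was at 0 in BPSIP or control females. In BPSIP males the Kupffer cell sum was 781 to 852 CPM against 714 to 734 CPM in 2,4-BPS males, 771 to 789.9 CPM in BPS males, 839.9 to 909 CPM in E2 males and 1122 to 1234 CPM in the libraries labelled male control, and 5 of 12 genes were higher than in the other 3 groups. The part of these cells in the level of the 10 markers was not tested.

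**Figure D4:**
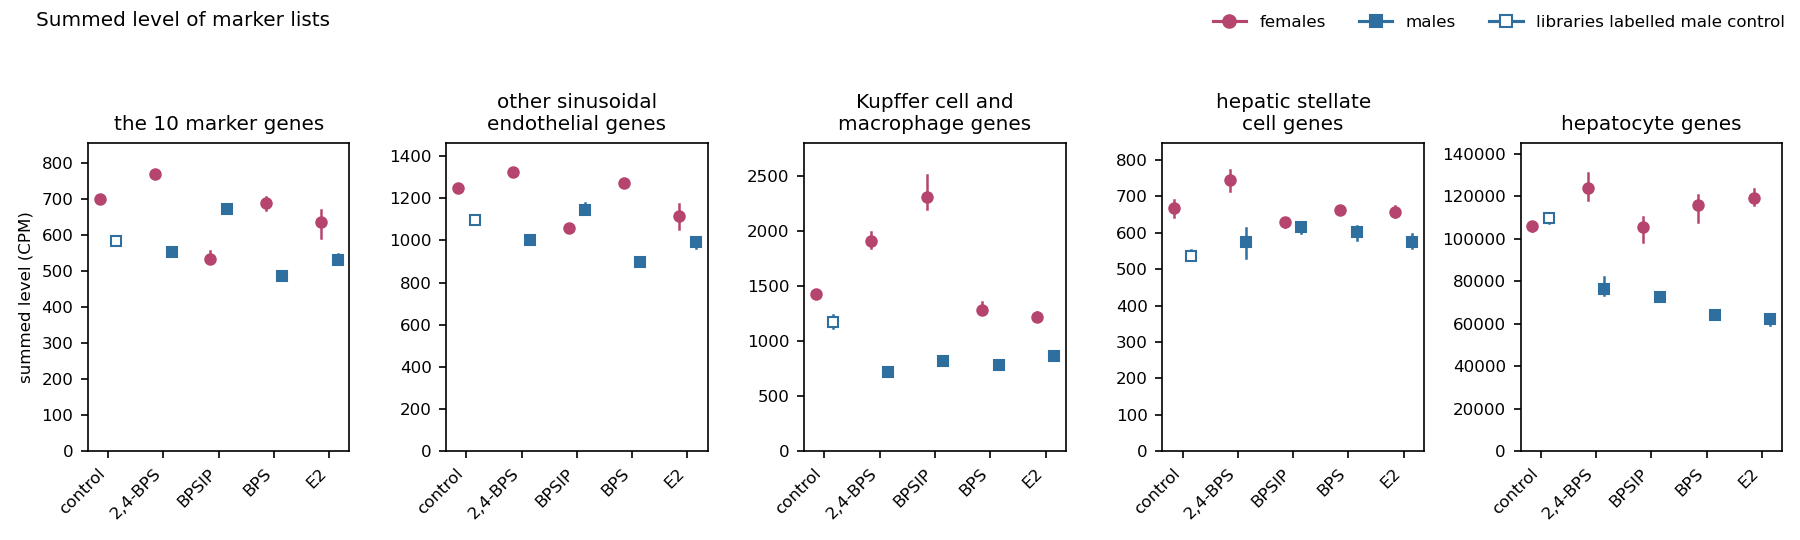
Summed level of 5 gene lists in CPM (vertical axes, each from 0) by exposure, with females as circles, males as squares and open squares for the libraries labelled male control; symbols are means of 3 libraries and lines their range. The 10 markers sum to 534 ± 18.1 CPM in BPSIP females, against 701 ± 5.64 in control, while the Kupffer cell and macrophage genes are highest in that group.

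Over all genes other than the 10, the 8 genes of a mean of at least 1 CPM whose log2 level over the 10 group means was most like the mean of the 10 markers were Prag1 (Pearson r 0.947), Arhgap31 (0.933), Timp2 (0.929), Amotl1 (0.920), Nr1i3 (0.916), Pla2r1 (0.903), Plxnc1 (0.902) and Sbf2 (0.899), of 11713 genes ranked. Plxnc1 is also among the 24 other sinusoidal genes. Nr1i3 encodes the receptor CAR of hepatocytes. These r rest on 10 points, of which 1 is the group labelled male control.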

How the data were processed

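Per the submitters' processing notes, the authors used HISAT2, HTSeq, R 3.2.0 and DESeq2; their roles, the build, the annotation and how strand was handled were not given in the sources used here, so reads of Stab2, Clec4g and Fcgr2b cannot be told apart from those of antisense neighbours. The authors deposited whole-number counts per gene symbol, which were used for all tests, and FPKM per gene, which were used only to compare levels between genes. The 10 markers and all gene lists were chosen with earlier results of these data known.

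Counts were fitted with edgeR 4.0.16 in R 4.3.3 (TMM factors, filterByExpr, robust quasi-likelihood test) in separate fits of 15 female, 15 male, 12 exposed male and all 30 libraries, with Benjamini-Hochberg adjustment over all genes tested and a threshold of 0.05. Libraries are numbered within groups and were taken as separate offspring, but litters were not modelled. The standard error is the log2 fold change divided by the square root of F, and CPM use the TMM factors of the fit of 30 libraries. No pair of libraries held identical counts. The scripts were tested on simulated data. Alternatives were DESeq2 1.42.0, RLE factors, library totals, all genes without a filter, a block for replicate numbers, other sets of libraries and leaving out each library.

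Besides the 10 markers, the text names up to 4 genes of each list, those with the smallest p over the 4 female comparisons with control, and the 8 genes most like the markers' mean log2 level (pseudocount 0.5 CPM, mean of at least 1 CPM). Promoter sequences are from RefSeq on GRCm38.p6.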

Additional observations from a re-analysis of the deposited data

Results flagged for a closer look

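The effects of an exposure against control differed between the sexes for 19 of the 40 marker and exposure combinations. The test was edgeR's quasi-likelihood test of the difference itself, with Benjamini-Hochberg adjustment over all genes. Called markers numbered 5 with 2,4-BPS, 8 with BPSIP, 4 with BPS and 2 with E2. Of all genes, 34.8%, 36.3%, 30.9% and 16.9% were called in either direction in the same comparisons. The count of 19 is to be read against these shares, and BPSIP stood farthest above its share. Values are the female minus the male log2 fold change, and each rests in part on the libraries labelled male control. The value without any control library (exposure against the other 3 exposures, females minus males) is therefore given beside the main groups. The values of a gene without control libraries are tied, as each exposure is set against the other 3. A low value with BPSIP raises those of the other exposures, so their passing is not separate support.

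With BPSIP the difference was -0.60 for Stab1, -0.82 for Stab2, -0.59 for Clec4g, -0.76 for Kdr, -0.34 for Eng, -0.76 for Ptprb, -0.35 for Oit3 and -0.74 for Fcgr2b. Without control libraries all 8 passed again, from -0.45 for Eng to -0.95 for Stab2.

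With 2,4-BPS it was 0.46 for Stab1, 0.29 for Stab2, 0.32 for Kdr, 0.29 for Ptprb and 0.64 for Oit3. Without control libraries these were 0.55, 0.51, 0.50, 0.51 and 0.47, and all passed. With BPS it was 0.30 for Stab2, 0.33 for Clec4g, 0.23 for Eng and 0.54 for Oit3, and without control libraries 0.55, 0.54, 0.31 and 0.35, all passing. Kdr (0.24, adjusted p = 0.058) and Ptprb (0.23, adjusted p = 0.0541) just missed the threshold with BPS. They passed in 25 and 26 of the 36 alternatives. The Eng difference with BPS did not pass without BPS replicate 1 of either sex or control female replicate 1 (adjusted p 0.0618 to 0.113), nor with library totals (adjusted p = 0.655).

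With E2 it was 1.47 for Lyve1 and 0.32 for Oit3. Without control libraries Lyve1 had 1.42, and Oit3 had 0.02 and did not pass (adjusted p = 0.902).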

How the results depend on the processing

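Of 5820 alternative values, 5533 kept their side of the threshold, 111 came to pass, 167 no longer passed and 9 reversed. For pairs and sex differences these include fits that left out a library of a group outside the comparison. Such fits can change a value only through the shared scaling and spread, so the share of unchanged values is partly built in. A reversal was counted only where the value passed before or after, so some of the 5533 changed sign without passing in either. For Clec4g with BPS against control in females, the log2 fold change was 0.05 and ran from -0.03 to 0.09 over the alternatives. Numbers of called markers moved as follows. In the fit of 6 libraries, 7 were called for 2,4-BPS females (3 in the shared fit) and 3 for E2 females (5). With library totals, 2 were called for BPS females (1) and 4 for 2,4-BPS males against the libraries labelled male control (7). In the mixed comparison 4 were called for BPS males (8) and 4 for E2 males (7). Reversed log2 fold changes in the mixed comparison were 0.0129 (Eng, 2,4-BPS), 0.0423 (Eng, E2), 0.22 (Fcgr2b, 2,4-BPS), 0.18 (Fcgr2b, BPS), 0.22 (Fcgr2b, E2), 0.0322 (Kdr, 2,4-BPS), 0.17 (Stab2, 2,4-BPS) and 0.0117 (Stab2, BPS); the 3 of Fcgr2b and that of Stab2 with 2,4-BPS passed the test in the new direction. Without control libraries the sex difference of Lyve1 with BPS was -0.45, a value tied to that of Lyve1 with E2. Calls of the mixed comparison do not measure an exposure alone, since the added female RNA raises genes that are higher in control females. The cause of the other moves was not tested.

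With 1 library left out in turn, called markers in females numbered 3 to 4 (2,4-BPS), 9 to 9 (BPSIP), 1 to 1 (BPS), 2 to 4 (E2) and 34 to 38 (pairs). In males against the labelled control they numbered 5 to 7 (2,4-BPS), 5 to 7 (BPSIP), 8 to 9 (BPS) and 4 to 6 (E2), against the other 3 groups 24 to 26, and in pairs 36 to 40. The sex difference gave 18 to 22, the exposed sexes 9 to 9 and the control sexes 4 to 7.

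Replicate numbers are shared between groups, but same-numbered libraries did not deviate together: correlations of deviations ran from -0.184 to 0.135 in females and from -0.107 to 0.124 in males, with 2 of 30 and 1 of 30 above 0.1. With the replicate number as a block, 3, 9, 1 and 4 markers were called in 2,4-BPS, BPSIP, BPS and E2 females, 7, 7, 8 and 6 in males, 37 and 39 in pairs, 26 against the other 3 groups, 20 for the sex difference, 9 for the exposed and 6 for the control sexes.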
